A study of Mus musculus with 4 samples.

Results

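The cytosolic ribosomal proteins are the protein part of the ribosome, the machine that translates messenger RNA in the cytoplasm, and each is incorporated into either the large or the small subunit together with ribosomal RNA. Their transcripts are among the most abundant of a cell, and in mammals most begin with a short run of pyrimidines, the terminal oligopyrimidine (TOP) start, through which mTORC1 and the binding protein LARP1 control how well they are translated. Activated dendritic cells are known to raise protein synthesis early and to lower it later. The loci were chosen by name: gene symbols of Rpl or Rps followed by a number, with Rpsa, Rplp0, Rplp1 and Rplp2, and without Rps6k kinase genes and names marked as pseudogenes. Such a name was borne by 84 of 30043 loci, and 81 of these reached a level of 1 FPKM or more in 2 or more of the 4 libraries. FPKM counts sequenced fragments per kilobase of transcript after scaling to the size of the library. The 81 comprised 48 loci of the large subunit and 33 of the small subunit. The 3 loci that did not reach this level were Rpl10l, Rpl3l and Rpl39l, each a relative of a widely expressed ribosomal protein gene. Rpl10l was listed at 0 in all 4 libraries, Rpl3l measured 0 and 0 with PBS and 0.143 and 0.426 with SRBC, and Rpl39l measured 0.155 and 0.143 with PBS and 0.150 and 0.480 with SRBC. The loci of Rpl3, Rpl13a, Rpl30 and Rpl34 also carried another gene name, so their values are uncertain, and ribosomal protein genes have many processed pseudogenes to which reads can be assigned.

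RNA came from CD4+ dendritic cells, sorted from the spleen as CD11c+, I-Ab+ and CD8-, of C57BL/6 mice that were all heterozygous for Gpr183. Mice received either PBS (100 uL) or sheep red blood cells (SRBC, 1000000000 cells) for 1 h, with 2 libraries of each made from 100 ng of RNA. The labels give neither the age nor the sex of the mice and leave unsaid whether replicate libraries are from different mice. The p-values therefore reflect the spread between libraries alone, and this spread may be technical. In the limma fit, with 2 residual and 28.7 prior degrees of freedom, that spread is mostly shared among loci of similar level. A standard error (SE) given for a locus is thus not the spread of its own replicates alone. Fold changes are log2 differences, SRBC minus PBS, of log2(FPKM + 1), n = 2 libraries per group. In bulk RNA, fewer cells of a type and less RNA per cell cannot be told apart.

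Some facts of the libraries bear on all that follows. Depth, estimated from low values within a preset window in genes with a single long transcript, was 8470000 to 9150000 fragments per library. The window itself bounds this estimate, so it is rough and cannot show whether the libraries differed in depth. The summed FPKM was 410321 and 377167 with PBS and 509007 and 558016 with SRBC, so the scale between libraries is uncertain by about the size of the differences described here. Xist measured 0.210 and 0.327 with PBS and 339 and 306 with SRBC, and the Y-linked gene Ddx3y measured 17.2 and 20.4, then 0.0307 and 0.00819, so that treatment and sex cannot be told apart. The 7 markers of the sorted cell were all measured, with summed FPKM of 5042 and 4553 with PBS and 8592 and 9869 with SRBC. Most of that sum was H2-Ab1 (4440 and 3905, then 7751 and 8908), which was called higher with Zbtb46 and Irf4, while the log2 fold changes of Itgax, Cd4, Flt3 and Sirpa, 0.28, -0.033, -0.22 and -0.12, were not called. Cd8a lay between 1.20 and 2.63. Among other cells that a sort could hold, the summed FPKM of erythroid markers was 62.4 and 12.2, then 109 and 188, of neutrophil markers 56.8 and 5.80, then 38.1 and 84.4, of macrophage markers 137 and 119, then 154 and 189, and of proliferation genes 42.6 and 83.3, then 99.5 and 123. B cell markers (20.4 to 42.5), T cell markers (3.67 to 10.1), NK cell markers (3.18 to 16.7) and plasmacytoid dendritic cell markers (42.9 to 93.0) overlapped between the groups, while CD8 dendritic cell markers measured 36.2 and 30.7, then 20.7 and 25.2. With limma 3 of 4 tested erythroid loci, 2 of 3 neutrophil loci, 1 of 7 macrophage loci and 2 of 4 proliferation genes were called higher and 1 of 4 CD8 dendritic cell genes lower, beside 13.5% of all tested loci called higher and 6.2% called lower. With median-of-ratios rescaling 1 of 4 erythroid and 0 of 3 neutrophil loci were called higher. No matched marker of any list was at 0 in all 4 libraries. SRBC library 2 had the highest sum in the B, T, NK, neutrophil, erythroid and macrophage lists, and the part of these cells in the values below was not tested.

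The start of the transcript is shown for 9 loci, since the TOP start is the feature by which this family is known. The 9 were selected and do not show how often members hold a pyrimidine run, which is given in the next paragraph. Each sequence runs from 20 bases before to 20 bases after the RefSeq start (GRCm38.p6, the build also called mm10), 5′ to 3′ on the strand of the gene, and capitals mark a run of pyrimidines that begins with C, is followed by at least 5 more pyrimidines and starts between 10 bases before and 15 bases after the annotated start. The first 3 are the locus with the highest level (Rps27), the one with the lowest level apart from paralogues (Rps15a), and Rps6, whose product is the small-subunit protein phosphorylated by S6 kinases.
Rps27 (chr3:90213629-90213668, minus strand): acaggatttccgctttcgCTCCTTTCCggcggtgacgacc
Rps15a (chr7:118116128-118116167, minus strand): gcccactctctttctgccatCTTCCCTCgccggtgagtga
Rps6 (chr4:86857348-86857387, minus strand): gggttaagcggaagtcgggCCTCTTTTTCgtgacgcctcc
The next 4 are loci at either end of the range of fold changes, Rps10 and Rpl7a at the upper end and Rpl38 at the lower end, with the paralogue Rpl22l1.
Rps10 (chr17:27635225-27635264, minus strand): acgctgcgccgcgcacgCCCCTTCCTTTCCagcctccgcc
Rpl7a (chr2:26910787-26910826, plus strand): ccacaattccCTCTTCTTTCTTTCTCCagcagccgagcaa
Rpl38 (chr11:114668560-114668599, plus strand): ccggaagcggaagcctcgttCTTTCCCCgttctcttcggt
Rpl22l1 (chr3:28805488-28805527, plus strand): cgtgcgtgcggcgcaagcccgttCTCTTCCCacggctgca
The last 2 hold no such run in this window: Rpl7l1, the locus with the highest fold change, and Rps4x.
Rpl7l1 (chr17:46782637-46782676, minus strand): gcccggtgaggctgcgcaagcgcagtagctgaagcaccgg
Rps4x (chrX:102189372-102189411, minus strand): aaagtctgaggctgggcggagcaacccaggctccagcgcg

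The run was present in 35 of the 60 ribosomal protein genes with a RefSeq start region (58.3%), against 24.9% of 27025 genes searched the same way. The motif CCGGAAG, the core recognised by ETS-family transcription factors, occurred on either strand of the 250 bases before and 50 bases after the start in 25 of 60 (41.7%), against 9.93% of all genes. TATAAA occurred in 7 of 60 (11.7%), against 15.7% of all genes, and does not overlap the ETS motif in its letters. A match is a description of letters only, and the annotated start can lie some bases from the one used in these cells. Rps6 and Rps10 each held the ETS motif upstream of the start, shown in capitals within 31 bases on the strand of the gene.
Rps6 (chr4:86857440-86857470, minus strand): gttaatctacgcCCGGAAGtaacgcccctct
Rps10 (chr17:27635255-27635285, minus strand): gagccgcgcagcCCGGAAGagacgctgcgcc
The loci whose start held the pyrimidine run had a median log2 fold change of 0.40 (0.23 to 0.63, n = 35) and those without it 0.35 (0.16 to 0.76, n = 25), and the ranges overlapped.

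Ribosomal protein transcripts were among the most abundant in these dendritic cells, and their order was nearly the same in every library. Of the 1102 loci with the highest mean FPKM, 79 were ribosomal protein loci. The median ribosomal protein locus measured 679 and 755 FPKM after PBS and 821 and 1109 after SRBC. Spearman's rho of the members' levels between pairs of libraries was 0.978 to 0.994 over 81 loci, which share transcript lengths and the counting of reads. Apart from the paralogues Rpl7l1, Rpl22l1, Rps27l and Rps4y2, the highest of 77 loci exceeded the lowest 56.8, 50.9, 53.6 and 52.5 times in PBS libraries 1 and 2 and SRBC libraries 1 and 2, while 55, 57, 55 and 56 loci lay within 2-fold of the median.

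The highest level was that of Rps27, a small-subunit protein with a zinc finger, at 4057 and 4087 FPKM after PBS and 4368 and 5654 after SRBC. Rps29, another small zinc-finger protein of the small subunit, measured 3052 and 2403, then 3443 and 3629. Rpl41, the shortest ribosomal protein, measured 2091 and 1853, then 2269 and 2805, and Rps23, which lies at the decoding centre, measured 1903 and 1903, then 2196 and 2740. In each of these 4 both SRBC libraries lay above both PBS libraries, and none of the 4 was called between the groups. In the order of levels Rpl41 and Rps23 lay next to each other, with overlapping ranges over the 4 libraries. At the other end stood Rps15a, a small-subunit protein, at 71.4 and 80.3 FPKM after PBS and 81.5 and 108 after SRBC, with Rpl22 next to it at 81.5 and 83.0, then 93.9 and 112. Rpl22 binds a small RNA of Epstein-Barr virus in human cells and is dispensable for most translation in the mouse. Loci named as pseudogenes of Rps15a were also listed: Rps15a-ps6 measured 13.1 and 13.7, then 16.6 and 22.1, and Rps15a-ps4 measured 13.6 and 14.8, then 15.3 and 19.3. How reads were divided among them was not tested.

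The level fell with coding length, from a median of 1372 FPKM over 17 loci with fewer than 350 coding bases to 862 over 40 loci with 350 to 600 and 525 over 23 loci with more than 600. Spearman's rho of level on coding length was -0.28 over 80 loci. FPKM divides by transcript length, and on short transcripts this division depends on the fragment lengths of the library, and whether the slope is a property of the cells was not tested. The replicates themselves differed along the same axis. PBS library 2 minus PBS library 1 had a median log2 difference of -0.095 over the short loci, 0.10 over the middle ones and 0.25 over the long ones, with rho of 0.45. SRBC library 2 minus SRBC library 1 gave 0.32, 0.33 and 0.37 in the same order, with rho of 0.14. The log2 fold change, SRBC minus PBS, also rose with coding length, with medians of 0.29, 0.37 and 0.42 and rho of 0.32. How far the order of fold changes among the loci below follows length was not tested.

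**Figure D1:**
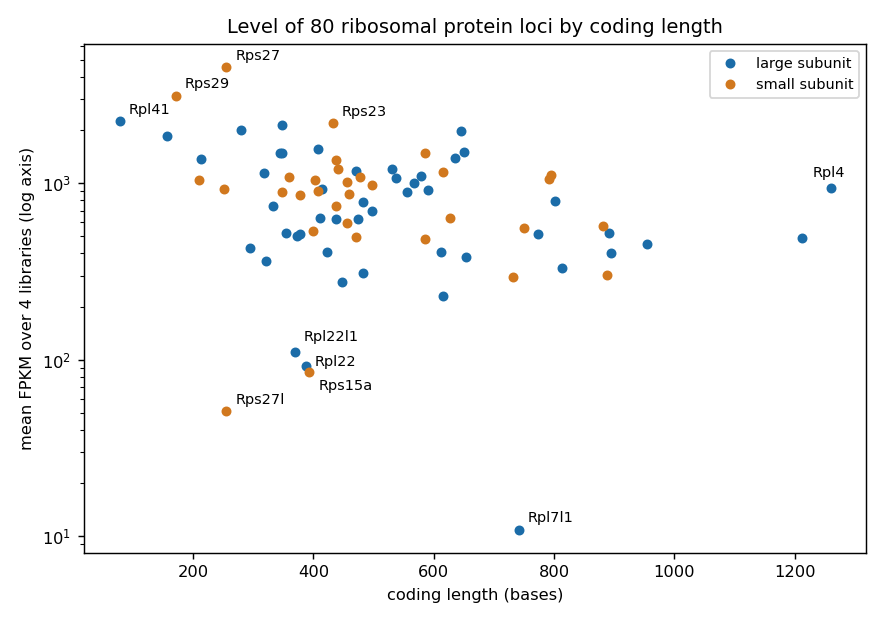
Mean FPKM over 4 libraries (log axis) against coding length in bases for 80 ribosomal protein loci, each point a locus, coloured by subunit. Rps27, Rps29 and Rpl41 are short and high, while Rpl22, Rps15a, Rps27l and Rpl7l1 lie below the rest.

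After SRBC the ribosomal protein loci as deposited were shifted a little and together, and a single locus, Rpl7l1, rose beyond the limma test. All 81 had a positive log2 fold change both on the deposited scale, from 0.16 in Rpl36a to 0.76 in Rpl7l1 with a median of 0.38, and with median-of-ratios rescaling (median 0.28), while 76 of 81 were positive (median 0.14) with upper-quartile rescaling, 25 of 81 (median -0.054) when libraries were rescaled to the same sum (TPM) and 9 of 81 (median -0.17) after quantile normalization. With limma at a Benjamini-Hochberg adjusted p under 0.05 over 11020 loci, 1 of 81 (1.23%) was called higher and 0 lower, against a background of 13.5% of tested loci called higher and 6.2% called lower. The unadjusted limma p was under 0.05 for 8 of 81 loci (Rpl7l1, Rps4y2, Rpl7a, Rpl22l1, Rpl34, Rps10, Rps2 and Rps27l). An adjusted p is never the smaller, so at least the 13.5% and 6.2% of all tested loci that were called passed this threshold too. The authors' deposited table, from cuffdiff, gave a q under 0.05 for 1 member, Rpl7l1, and the share over all loci was not counted. Both SRBC libraries lay above both PBS libraries in 68 of the 81 (84.0%), against 34.3% of all tested loci, and the groups overlapped in 13. The share of 84.0% stands well above that background, but all 81 loci share the scale of their library, so they are not separate observations of a change.

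The members moved within a narrow band. Their log2 fold changes had an SD of 0.11 and an interquartile range of 0.31 to 0.46, while those of all tested loci had an SD of 0.67 and an interquartile range of -0.27 to 0.43 around a median of 0.070. The large subunit had a median of 0.39 (0.16 to 0.76) and the small subunit 0.37 (0.22 to 0.71). The limma standard error of a single locus, 0.22 to 0.34 and mostly shared among loci of similar level, was larger than the SD among the loci. A locus of median error needed a log2 fold change of 0.72 to be called, so a shift of 0.38 in all members could not be called locus by locus with 2 libraries per group. The 95% interval included 0 for 73 loci and lay above 0 for 8, included a doubling (log2 of 1) for 18 and included a log2 fold change of -0.5 for 0. Among the other 1023 of the 1102 most abundant loci the median log2 fold change was 0.50, with 414 called higher and 36 lower, while 0 of the 79 ribosomal protein loci among them were called.

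**Figure D2:**
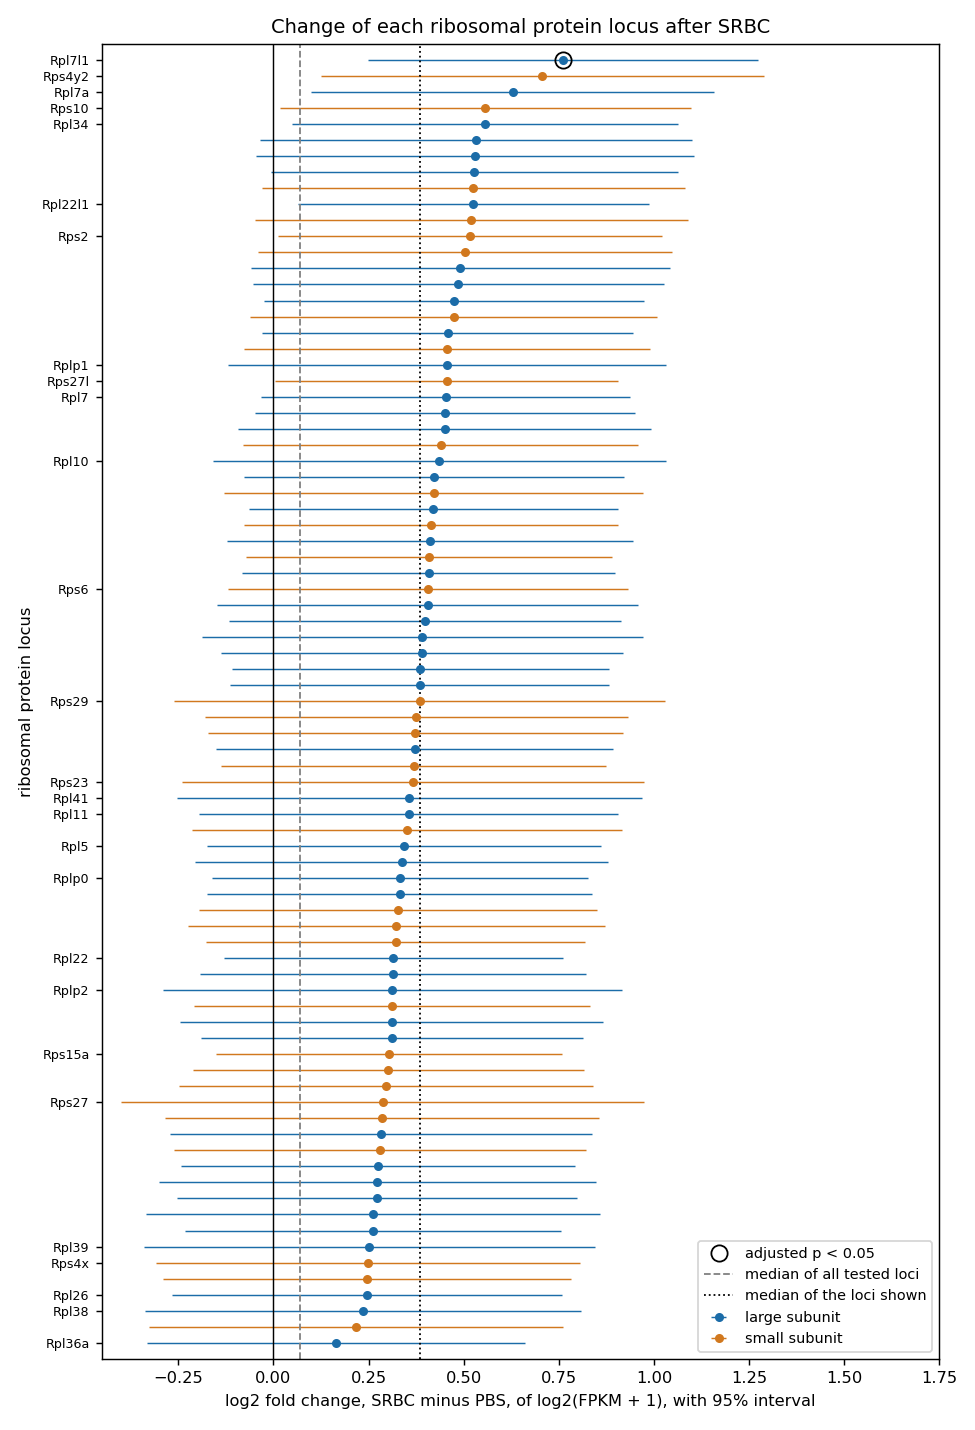
Log2 fold change of log2(FPKM + 1), SRBC minus PBS, for each of 81 ribosomal protein loci, with bars for the limma 95% interval (n = 2 libraries per group), coloured by subunit and labelled where the locus is described. All points lie right of 0 on the deposited scale (25 do so after TPM and 9 after quantile rescaling), 73 bars cross it, and the circled locus, Rpl7l1, has an adjusted p under 0.05.

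The size of the shift differed between the SRBC libraries. Every one of the 81 loci was higher in SRBC library 2 than in SRBC library 1, by a median of 0.34 on the log2 scale, while the same difference over all tested loci was 0.15. Between the PBS libraries 56 loci were higher and 25 lower in library 2, with a median difference of 0.11, and 0.21 over all tested loci. The difference between the SRBC replicates, 0.34, was thus nearly as large as the median difference between the groups, 0.38. Without SRBC library 2 the median log2 fold change of the members was 0.21, and that of all tested loci was 0.011. Without SRBC library 1 these medians were 0.54 and 0.14. SRBC library 2 also had the highest summed FPKM over all loci and, as given above, the highest sums of most other-cell markers. Between the PBS libraries the B, T, NK, neutrophil, erythroid and macrophage marker sums were higher in library 1. The part of other cells or of library scale in these differences was not tested.

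**Figure D3:**
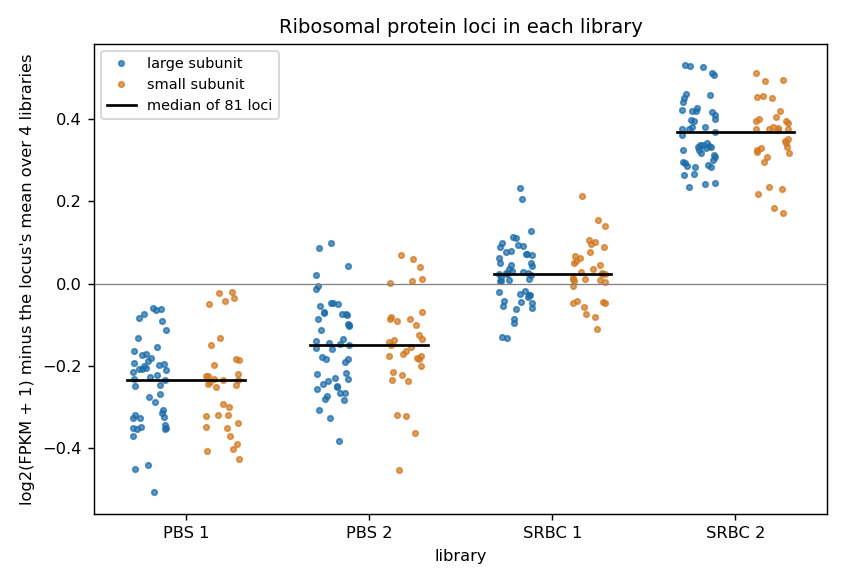
Log2(FPKM + 1) of each of 81 ribosomal protein loci minus its mean over the 4 libraries, by library, with large-subunit loci to the left, small-subunit loci to the right and a bar at the median of all 81. Each of the 81 loci is higher in SRBC library 2 than in SRBC library 1, while the points of SRBC library 1 overlap those of PBS library 2.

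Rpl7l1 resembles the large-subunit protein Rpl7, and its yeast counterpart, Rlp7, acts in the assembly of the large subunit in the nucleolus and is not part of the finished ribosome. It measured 7.05 and 8.62 FPKM after PBS and 12.5 and 15.5 after SRBC. Both SRBC libraries lay above both PBS libraries, on levels far under those of the ribosome's own proteins. The mean rose from 7.84 ± 1.11 to 14.0 ± 2.16 (SD, n = 2 each), a log2 fold change of 0.76 ± 0.25 SE with a limma adjusted p of 0.029, and the authors' deposited table gave a q of 0.038. The gene lies on chromosome 17 from 46773907 to 46782672 on the minus strand (GENCODE M21, GRCm38) and codes for protein. Its call was lost without PBS library 1 (limma adjusted p of 0.092), SRBC library 1 (0.096) or SRBC library 2 (0.40), and also with upper-quartile rescaling (0.056), TPM (0.34), no filter on low values (0.27) or unnamed loci in the fit (0.070). Its log2 fold change was positive under all of these.

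Rpl7 itself, which contacts RNA of the large subunit, measured 254 and 302 FPKM after PBS and 334 and 431 after SRBC, and its log2 fold change was 0.45 ± 0.24 SE with a limma adjusted p of 0.19. Rpl7l1 stood at 2.78% and 2.85% of the FPKM of Rpl7 with PBS and 3.73% and 3.60% with SRBC, a ratio within a library that does not depend on the scale between libraries. The groups did not overlap in this ratio, nor in the ratios of the other paralogues to their partners given below. How often other pairs of genes show this was not tested. With 2 libraries against 2 the smallest two-sided exact permutation p is 0.333.

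The other 3 paralogues were not called. Rps27l, a close relative of Rps27 whose human gene is a target of p53, measured 42.5 and 43.3 FPKM after PBS and 52.4 and 66.8 after SRBC, or 1.05%, 1.06%, 1.20% and 1.18% of Rps27. Rpl22l1, which in the mouse can take the place of Rpl22, measured 87.3 and 92.9, then 109 and 155. Both lay higher in both SRBC libraries, and the log2 fold changes were 0.46 ± 0.22 SE (limma adjusted p of 0.15) and 0.52 ± 0.23 SE (limma adjusted p of 0.10). Rpl22l1 was thus as abundant as Rpl22, at 107% and 112% of it after PBS and 116% and 138% after SRBC. Rps4y2, listed under the symbol Rps4l in current tables and annotated by GENCODE as a transcribed processed pseudogene (chromosome 6, 148354656 to 148355598), measured 2.1 and 1.69, then 3.27 and 4.19. Its log2 fold change was 0.71 ± 0.29 SE with a limma adjusted p of 0.080, and it stood at 0.154% to 0.325% of the level of Rps4x; whether its reads come from that gene was not tested. Without PBS library 1, Rps4y2 was the one called locus.

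Of the proteins of the finished ribosome, the highest fold changes were those of Rpl7a and Rps10. Rpl7a, a large-subunit protein whose gene also hosts small nucleolar RNAs, measured 614 and 619 FPKM after PBS and 821 and 1109 after SRBC. Both SRBC libraries stood above the PBS libraries, which differed little from each other. The means were 616 ± 4.10 and 965 ± 204, with a log2 fold change of 0.63 ± 0.26 SE and a limma adjusted p of 0.087 (the authors' deposited table gave a q of 0.088), and Rpl7a was called with a robust variance model and without SRBC library 1. Rps10, a protein of the small-subunit beak, measured 806 and 758, then 1020 and 1298. Its groups did not overlap either, and its log2 fold change was 0.56 ± 0.27 SE with a limma adjusted p of 0.14. Rpl34 (406 and 433, then 527 and 724) and Rps2, a protein at the entry channel of the small subunit (445 and 499, then 621 and 732), showed the same order, with log2 fold changes of 0.56 and 0.52 and limma adjusted p of 0.12 and 0.15.

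Among the lowest fold changes were those of Rpl36a, Rpl38 and Rpl26. Rpl36a, an X-linked large-subunit gene, measured 303 and 382 FPKM after PBS and 329 and 442 after SRBC. Its SRBC library 1 lay under PBS library 2, so the groups overlapped, and the log2 fold change was 0.16 ± 0.24 SE (limma adjusted p of 0.69). Rpl38, known in the mouse for its part in translating Hox messenger RNAs in the embryo, measured 1193 and 1316, then 1270 and 1711, with a log2 fold change of 0.23, and its groups overlapped. Rpl26, which binds p53 messenger RNA in human cells, measured 567 and 575, then 604 and 759, with a log2 fold change of 0.25. The 95% intervals of all 3 included 0, and after upper-quartile rescaling all 3 log2 fold changes lay below 0, from -0.084 in Rpl36a to -0.0032 in Rpl26.

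The acidic proteins of the stalk, which recruits elongation factors, lay within the band of the other members. Rplp0, the base of the stalk, measured 382 and 419 FPKM after PBS and 456 and 558 after SRBC. Rplp1 measured 1294 and 1203, then 1498 and 1956, and Rplp2 1998 and 1785, then 2170 and 2533. In all 3 both SRBC libraries were the higher ones, with log2 fold changes of 0.33 ± 0.24, 0.46 ± 0.28 and 0.31 ± 0.30 SE and limma adjusted p of 0.36, 0.27 and 0.51. Rpl5 and Rpl11, which together with a ribosomal RNA can bind and inhibit Mdm2, the ubiquitin ligase of p53, measured 290 and 422, then 371 and 531 (Rpl5) and 908 and 956, then 1039 and 1369 (Rpl11). The groups of Rpl5 overlapped and those of Rpl11 did not. The log2 fold changes were 0.34 ± 0.25 SE for Rpl5 and 0.36 ± 0.27 SE for Rpl11, with limma adjusted p of 0.37 and 0.39. Rps6 measured 411 and 547, then 529 and 749, with SRBC library 1 under PBS library 2, and a log2 fold change of 0.41 ± 0.26 SE (limma adjusted p of 0.29).

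The 4 X-linked members are given together because sex and treatment coincide. Rps4x, whose human copy escapes X inactivation, measured 837 and 1098 FPKM after PBS and 1004 and 1293 after SRBC, with overlapping groups and a log2 fold change of 0.25. Rpl39, which lines the exit tunnel, measured 1758 and 1608, then 1794 and 2234, with a log2 fold change of 0.25. Rpl10, a late-joining large-subunit protein, measured 1615 and 1749, then 2111 and 2452, with a log2 fold change of 0.44. With Rpl36a at 0.16, 3 of the 4 lay under the median of all members, 0.38.

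As a share of all transcripts, the ribosomal protein loci overlapped between the groups. Their summed FPKM was 64364 and 65773 with PBS and 75390 and 93761 with SRBC, but the sum over all loci was higher after SRBC too. The share was 15.7% and 17.4% with PBS and 14.8% and 16.8% with SRBC, so the groups overlapped. The replicates also differed in Rn45s, the locus of the ribosomal RNA precursor, which was listed at 41342 FPKM in PBS library 1, 0 in PBS library 2, 43106 in SRBC library 1 and 0 in SRBC library 2. It made up 10.1% and 8.47% of the sum where it was listed, and a value of 0 can be a failed estimate for so abundant an RNA. With Rn45s left out of the sum, an alternative added after seeing the data, the share was 17.4% and 17.4% with PBS and 16.2% and 16.8% with SRBC, which no longer overlapped. The ratio of small-subunit to large-subunit FPKM was 0.803 and 0.807 with PBS and 0.802 and 0.794 with SRBC, so both subunits kept nearly the same proportion in the 4 libraries.

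**Figure D4:**
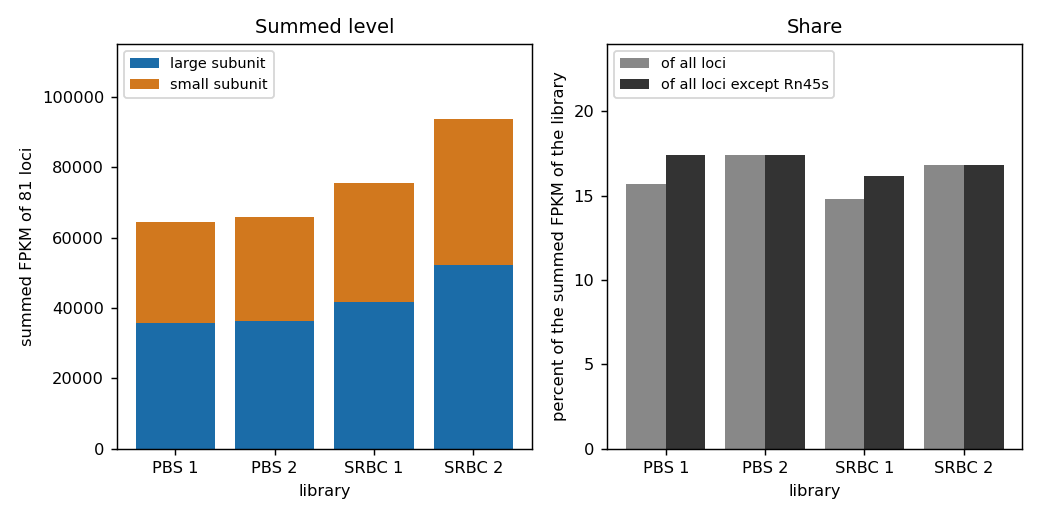
Left, summed FPKM of 81 ribosomal protein loci in each library, split by subunit. Right, the same sum as a percent of the summed FPKM of all loci (grey, 14.8% to 17.4%) and of all loci except Rn45s (black, 16.2% to 17.4%).

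When each library was rescaled so that the median ribosomal protein locus had the same level, no member was called apart from the others. In that scale the log2 fold changes of the members ran from -0.25 in Rpl36a (limma adjusted p of 0.27) to 0.35 in Rpl7l1 (limma adjusted p of 0.30), 79 of 81 lay within 0.25 of 0, and 0 were called with limma or had an unadjusted p under 0.05. Of all tested loci 25.2% were called in the same fit, 673 higher and 2103 lower than the ribosomal proteins. The rescaling uses the members themselves, which holds their median near 0, and says nothing of whether the whole family moved.

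Genes tied to ribosomal proteins by function were read from lists made of textbook members. The ribosomal proteins that the name rule leaves out, Gnb2l1 among them, had 0 of 4 called and a median log2 fold change of 0.40, beside 0.38 for the members. Gnb2l1, a scaffold protein bound to the head of the small subunit, measured 353 and 438 FPKM with PBS and 466 and 598 with SRBC, with a log2 fold change of 0.42 and a limma adjusted p of 0.24. Elongation factors and other messenger RNAs with a TOP start had 1 of 16 called higher and 0 lower (median 0.41), beside 13.5% and 6.2% of all tested loci. The called gene was Btf3, a subunit of the nascent polypeptide-associated complex that meets the growing chain at the ribosome, at 98.4 and 123, then 161 and 222. Both SRBC libraries lay above both PBS libraries, with a log2 fold change of 0.78 ± 0.23 SE and a limma adjusted p of 0.015, and the call was lost in 8 of 19 alternatives, among them TPM and the omission of PBS library 1 or SRBC library 2. Npm1, a nucleolar chaperone of ribosome assembly, measured 238 and 297, then 358 and 494 (log2 fold change 0.66, limma adjusted p of 0.053), and Naca, the partner of Btf3, 224 and 255, then 321 and 397 (log2 fold change 0.58, limma adjusted p of 0.079).

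Of 15 tested genes of mTORC1 signalling and LARP1, which govern translation of TOP messenger RNAs, 1 was called higher and 2 lower, with a median log2 fold change of -0.039, beside a background of 13.5% of all tested loci called higher and 6.2% called lower. Larp1, which binds the TOP start, measured 22.5 and 23.9 FPKM after PBS and 49.3 and 56.4 after SRBC. The groups were far apart, with a log2 fold change of 1.15 ± 0.22 SE and a limma adjusted p of 0.00024. Ddit4, an inhibitor of mTORC1 induced by stress, measured 37.0 and 92.6, then 9.94 and 11.3, and Sesn1, an inhibitor that senses leucine, 19.3 and 26.3, then 7.35 and 8.50. Both fell, by 2.36 and 1.40 on the log2 scale (limma adjusted p of 1.1e-07 and 7.1e-05), and all 3 calls were lost when no low-value filter was set and in no other of the 19 alternatives. Mtor itself measured 10.4 and 13.6, then 12.0 and 13.2, with a log2 fold change of 0.076.

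The dedicated chaperones and loading factors of single ribosomal proteins had 3 of 11 called higher and 0 lower (background 13.5% and 6.2%), with a median of 0.29. Grwd1, the chaperone of Rpl3, measured 1.41 and 0.811 FPKM after PBS and 3.87 and 3.53 after SRBC (log2 fold change 1.17 ± 0.29 SE, limma adjusted p of 0.0038). Aamp, the human counterpart of which binds Rps2 as a chaperone, measured 13.0 and 13.2, then 24.4 and 27.1, and Ltv1, which helps to assemble the small-subunit head, 11.9 and 14.4, then 20.2 and 31.5. Their log2 fold changes were 0.92 and 0.90, with limma adjusted p of 0.0040 and 0.0083. Even with every library kept, all 3 calls were lost with no low-value filter and with the ribosomal median rescaling. Those of Aamp and Ltv1 were also lost with TPM, with or without Rn45s in the sum. After TPM rescaling 1 of the 11 was called higher and 1 lower, where 629 of all 11020 tested loci were called higher and 1648 lower. Without SRBC library 2 the median log2 fold change of the 11 was 0.29.

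Mitochondrial ribosomal proteins serve the separate ribosome of that organelle and are also encoded in the nucleus. On the deposited scale they were called higher at about the background rate and lower less often than the background. Of 76 tested, 11 were called higher and 1 lower with limma (background 13.5% and 6.2%), with a median log2 fold change of 0.27 and 61 positive values. After TPM rescaling 2 were called higher and 6 lower, where 629 of all 11020 tested loci were called higher and 1648 lower. Without SRBC library 2 the median log2 fold change of the 76 was 0.094. Mrps7, a small-subunit protein of that ribosome, measured 10.3 and 12.0 FPKM after PBS and 31.9 and 38.3 after SRBC, and Mrpl39, a large-subunit protein, 4.97 and 7.16, then 16.3 and 13.4. Their log2 fold changes were 1.57 and 1.18, and both were called. With every library kept, the call of Mrps7 was lost only with no low-value filter. That of Mrpl39 was also lost with TPM, with or without Rn45s in the sum. Mrps6 had a log2 fold change of 2.0, but its locus also carries the name of the transporter gene Slc5a3, so the gene behind its reads is uncertain. Mrps35, the lower one, measured 7.81 and 7.09, then 2.82 and 5.29, and fell by 0.78 on the log2 scale (limma adjusted p of 0.047), a call lost in 7 of 19 alternatives.

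**Figure D5:**
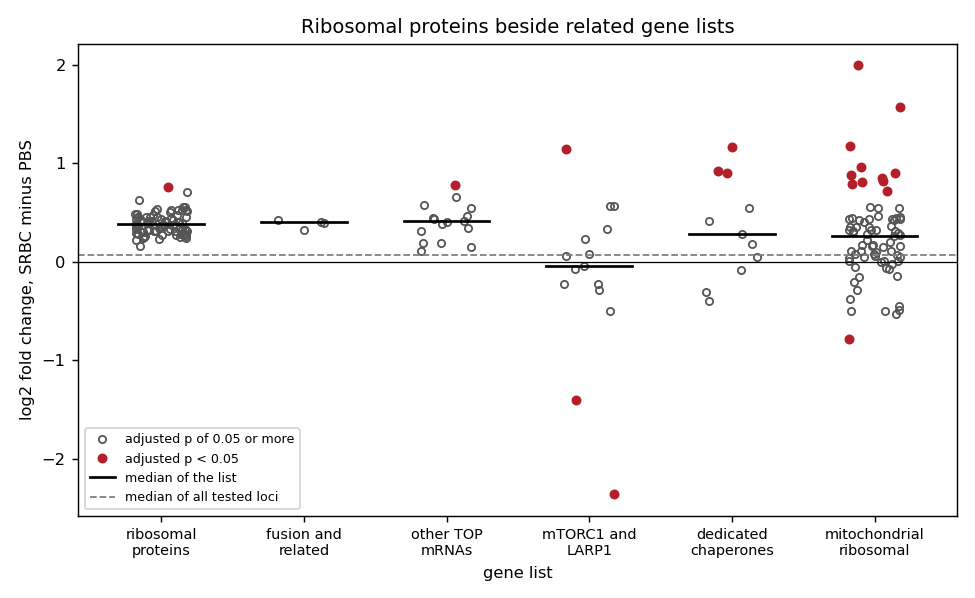
Log2 fold change, SRBC minus PBS, of each tested member of the cytosolic ribosomal proteins and of 5 related gene lists on the deposited scale, with a bar at each median, red for an adjusted p under 0.05 (limma, n = 2 libraries per group) and a dashed line at the median of all tested loci, 0.070. The cytosolic ribosomal proteins form a narrow band at 0.16 to 0.76 (a median of 0.38, and of -0.054 after TPM rescaling). Among the loci outside it are Larp1, Ddit4, Sesn1, Grwd1, Mrps6, Mrps7 and Mrpl39.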

How the data were processed

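The authors deposited FPKM values per locus and library, per the file headers, with q-values (adjusted p-values) of their cuffdiff comparison. CASAVA, TopHat2 2.0.8b, Cufflinks 2.1.1 and the mm10 build are named in the submitters' processing notes. Libraries were made with the Ovation RNA-seq System and sequenced on a HiSeq instrument, per the labels' protocols. The sources used here give no strand, annotation, scaling option or read total. FPKM is not a count, so limma 3.58.1 in R 4.3.3 (mean-variance trend, no covariates, two-sided) was fitted on log2(FPKM + 1) to the 11020 loci that had a name and reached 1 FPKM in 2 libraries or more, with Benjamini-Hochberg adjustment and a threshold of 0.05. Degrees of freedom were 2 residual and 28.7 prior. The procedure was run on simulated data with known changes. Their noise was drawn from the fitted variance model, with no difference of scale between libraries. This run therefore does not bear on library scale, transcript length or sex. Depth was estimated from the median of low values that fell within a preset window, in genes with a single long transcript. Coordinates and coding lengths came from GENCODE M21 by symbol, and start regions from RefSeq.

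The members and lists were chosen with earlier results of these data known. Named loci are the 4 highest and 4 lowest by level and by log2 fold change, called loci, and Rps27, Rps27l, Rpl22, Rpl22l1, Rplp0, Rps4x, Rpl5, Rpl11 and Rps6, with up to 3 genes of the smallest p per related list. Rpl34, Rps2, Rpl7, Rplp1, Rplp2, Mtor and Mrps35 were named after their values were seen. Values of some loci are not reported here. Alternatives were other pseudocounts, filters, rescalings, variance models, locus sets, the replicate block and each library left out.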

Additional observations from a re-analysis of the deposited data

How the results depend on the processing

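The call of Rpl7l1 and the positive direction of the family each held under some settings and not others. With median-of-ratios rescaling 81 of 81 members were positive (median 0.28) and Rpl7l1 was called (limma adjusted p of 0.026), and the call also held after quantile normalization (0.037). The count of members called higher, 1 on the deposited scale, was 0 with upper-quartile rescaling, with no low-value filter, with TPM, with the ribosomal median rescaling, with unnamed loci included and with TPM without Rn45s (added after seeing the data), and 2 (Rpl7a and Rpl7l1) with a robust variance model. Leaving out 1 library at a time gave 0 to 14, and 0 members were called lower in every setting. The median log2 fold change, 0.38, was 0.14 after upper-quartile rescaling, -0.17 after quantile normalization, -0.054 with TPM, -0.029 with the ribosomal median rescaling and -0.066 with TPM without Rn45s; it ranged from 0.21 to 0.54 with a library left out. The median of all tested loci moved too, from 0.070 to -0.14, -0.039, -0.33, -0.34 and -0.34 in the same order. Relative to that median the members stood 0.31 higher as deposited, 0.27 higher with upper-quartile rescaling and with TPM, and 0.13 lower after quantile normalization, that is, at -0.13. Calls over all loci, 1488 higher and 683 lower, became 629 and 1648 with TPM and 83 and 34 with no filter. The share over named loci only was 17.6%, 19.4%, 16.5% and 19.0% in PBS libraries 1 and 2 and SRBC libraries 1 and 2. The share over all loci in PBS library 1, 15.7%, was 17.4% without Rn45s.

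Log2 fold changes of the named loci that turned negative are given here, other members not listed. With TPM they were Rpl11 -0.082, Rpl22 -0.12, Rpl26 -0.19, Rpl36a -0.27, Rpl38 -0.20, Rpl41 -0.080, Rpl5 -0.094, Rplp0 -0.10, Rps15a -0.13, Rps23 -0.072, Rps27 -0.15, Rps29 -0.054, Rps4x -0.19 and Rps6 -0.031. With TPM without Rn45s they were Rpl11 -0.095, Rpl22 -0.13, Rpl26 -0.21, Rpl36a -0.29, Rpl38 -0.22, Rpl41 -0.093, Rpl5 -0.11, Rplp0 -0.12, Rps15a -0.14, Rps23 -0.085, Rps27 -0.16, Rps29 -0.066, Rps4x -0.20 and Rps6 -0.044. After quantile normalization they were Rpl11 -0.11, Rpl22 -0.25, Rpl22l1 -0.089, Rpl26 -0.34, Rpl36a -0.41, Rpl38 -0.18, Rpl41 -0.018, Rpl5 -0.25, Rpl7a -0.014, Rplp0 -0.22, Rps15a -0.24, Rps23 -0.018, Rps27 -0.30, Rps27l -0.023, Rps29 -0.22, Rps4x -0.29 and Rps6 -0.16. With the ribosomal median rescaling they were Rpl11 -0.058, Rpl22 -0.10, Rpl26 -0.17, Rpl36a -0.25, Rpl38 -0.18, Rpl41 -0.056, Rpl5 -0.071, Rplp0 -0.080, Rps15a -0.11, Rps23 -0.048, Rps27 -0.13, Rps29 -0.029, Rps4x -0.16 and Rps6 -0.0075. After upper-quartile rescaling they were Rpl26 -0.0032, Rpl36a -0.084 and Rpl38 -0.014. Rpl36a ranged from -0.047 to 0.38 with a library left out, and was -0.0037 without PBS library 1. The cause was not tested beyond the rescaling itself. Of the other values of named loci under alternatives, 301 kept direction and side of the threshold, 9 lost the call (all Rpl7l1) and 5 gained one.

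The labels do not say that replicate numbers mark a pair, and replicate differences of the SRBC and PBS libraries correlated at 0.052 over all tested loci and at 0.62 over the members; Rn45s was listed in both libraries numbered 1 and at 0 in both numbered 2. With the replicate block the count was 1 higher and 0 lower, the median 0.38 and the limma adjusted p of Rpl7l1 0.025. After such an omission the lone library of a group is taken to vary as the other group does. In the library where each member was lowest, estimated fragments had a median of 3962 over 80 members and a lowest value of 83 (Rpl7l1). There was no estimate for the scarcer Rps4y2. These values rest on the rough estimate of depth, and whether depth or the number of libraries limits the calls was not tested.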

Other observations

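The table also holds 6 loci named for ribosomal protein pseudogenes, which the name rule leaves out except where another name joins them. Rplp2-ps1, in a locus that also carries Wdr89, measured 21.0 and 24.8 FPKM after PBS and 25.3 and 36.9 after SRBC. Rpl31-ps12 measured 2.60 and 2.39, then 2.04 and 3.50, and Rps19-ps3, in a locus with Zfp933, measured 5.60 and 3.24, then 2.01 and 2.54. Rpl34-ps1 shares the locus of Rpl34, and the 2 loci of Rps15a pseudogenes are given with Rps15a. The share of their reads that belongs to the parent genes was not tested.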
